A study of Homo sapiens with 2 samples.

Results

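Mucin-type O-glycosylation begins in the Golgi apparatus, where a polypeptide N-acetylgalactosaminyltransferase (GALNT) links N-acetylgalactosamine to a serine or threonine of a protein. Many GALNT enzymes exist, and they differ in the peptides they accept and in whether they act on bare peptides or on peptides that already carry the sugar. The core 1 synthase C1GALT1 then adds galactose to that first sugar, so it acts in the step after the starters and is not itself a starter. Epithelial cells of the lung make many of the mucins and other surface glycoproteins that carry these chains.

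The genes described were 10 of the 27685 in the deposited gene table, chosen by symbol: GALNT2, GALNT3, GALNT5, GALNT6, GALNT7, GALNT10, GALNT12, GALNT14, GALNT18 and C1GALT1. They were chosen with the difference in GALNT6 between the cell lines in view, so differences between the lines are given as a description and were not tested. The question was which enzymes remained in H596 cells, where GALNT6 was low. H2087 and H596 are established lung cancer cell lines that the labels class as lung adenocarcinoma. Both were untreated cultures in the same medium, with 1 RNA-seq library each, and no treatment, genotype change or time point separates them. No value therefore has a replicate check, and the cell line and the library cannot be told apart. All levels are in FPKM, which is relative to transcript length and library size, and the intervals beside them come from the share of a library's counts that a gene takes (95%, Wilson). They cover counting error only.

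The estimated counts summed to 46961500 in H2087 and 55387847 in H596, and the members held 374 to 46414 counts in H2087 and 151 to 16833 in H596. Of 6 lung gland markers, 4 reached an FPKM of 1 in H2087 and 1, KRT7, did so in H596, where SFTPB had 0 counts; in H2087 it was SFTPC that had 0. NKX2-1 had 110 FPKM in H2087 against 0.508 in H596. Of 6 squamous markers, 2 reached an FPKM of 1 in H2087 and all 6 in H596. TP63 had 0.183 FPKM in H2087 against 55.2 in H596, and KRT5, KRT14 and DSG3 had 0 counts in H2087. The summed level of the squamous list was 40.8 in H2087 and 306.6 in H596, and that of the lung gland list was 1023 and 609. Single genes carried much of these sums. KRT7 alone had 791 FPKM in H2087 and 608 in H596, and SOX2 had 39.1 and 56.5. The H596 library thus had 5 of the 6 lung gland markers below 1 FPKM, and SFTPB and SFTPC were below it in H2087 too. Whether this bears on the label of H596 was not tested. The 4 general epithelial markers were present in both libraries, from 52.3 to 3607 FPKM in H2087 and from 59.6 to 536 in H596. Of these, 3 were at least 2-fold lower in H596. EPCAM had 375 FPKM in H2087 against 65.0 in H596, KRT8 2493 against 536 and KRT18 3607 against 234. CDH1 was within 2-fold, with 52.3 and 59.6. The marker differences lie between the same libraries as every difference below, and their part in those was not tested. The leukocyte markers PTPRC, CD3E and MS4A1 had 0 counts in both libraries. CD14, the other leukocyte marker listed, had 0.421 FPKM in H2087 and 0.157 in H596. The highest endothelial marker had an FPKM of 0.489. The summed fibroblast markers had 3.90 in H2087 and 10.7 in H596, mostly from a different gene in each. COL1A1 had 3.89 FPKM in H2087 and 0.916 in H596, and DCN had 0 counts in H2087 and 9.77 FPKM in H596. In such bulk samples, fewer cells of a type and less RNA per cell cannot be told apart.

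GALNT6 was the dominant starter transcript of H2087 and close to absent from H596. GALNT6 (gene 11226), a close relative of GALNT3 known from breast cancer cells, lies on the minus strand of chromosome 12 of hg19, from 51745833 to 51785200. In H2087 its FPKM was 214 (95% interval, 212 to 216) from 46414 counts, rank 277 among all genes. In H596 it was 0.591 (95% interval, 0.504 to 0.692) from 152 counts, rank 13409. The level in H2087 was 363 times that in H596 (95% counting interval, 309 to 428). Of the 13048 genes whose FPKM averaged at least 1, 3 had a lower difference of log2(FPKM + 1). This rank restates the difference that was in view when the genes were chosen, and adds no support to it. The gene is listed with a single transcript, NM_007210, so the use of different transcripts could not be examined.

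GALNT3 and GALNT2, which like GALNT6 can act on bare peptides, remained in H596. GALNT3 (gene 2591), on the minus strand of chromosome 2 from 166604313 to 166650803, glycosylates the phosphate hormone FGF23. It had 19.6 FPKM (95% interval, 19.0 to 20.3) in H2087 against 22.9 (95% interval, 22.2 to 23.6) in H596, a ratio of 1.16. Among the members it was one of those nearest to equal levels. The levels of GALNT6 and GALNT3 stood at 10.9 to 1 in H2087, and in H596 GALNT3 was 38.7 times higher than GALNT6.

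GALNT2 (gene 2590), a widely expressed starter, lies on the plus strand of chromosome 1 from 230193536 to 230417876. It had 34.6 FPKM (95% interval, 33.8 to 35.4) in H2087 against 66.6 (95% interval, 65.6 to 67.6) in H596, a ratio of 1.92 (95% counting interval, 1.87 to 1.98). It was thus the highest GALNT transcript in H596, and the third highest in H2087 after GALNT6 and GALNT10. Of its 3 listed transcripts, NM_004481 gave 99.2% of the level in H2087 and 99.5% in H596.

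GALNT7 and GALNT10 prefer peptides that already carry N-acetylgalactosamine, and they differed in opposite directions. GALNT7 (gene 51809), on the plus strand of chromosome 4 from 174089904 to 174245118, had 16.0 FPKM (95% interval, 15.5 to 16.6) in H2087 against 36.7 (95% interval, 36.0 to 37.5) in H596. This is 2.29 times higher in H596 (95% counting interval, 2.20 to 2.39). GALNT10 (gene 55568), on the plus strand of chromosome 5 from 153570295 to 153800543, had 37.5 FPKM (95% interval, 36.8 to 38.2) in H2087 against 6.54 (95% interval, 6.27 to 6.82) in H596. This is 5.74 times higher in H2087 (95% counting interval, 5.48 to 6.01). The summed level of the pair differed less than either gene, with 53.5 in H2087 and 43.3 in H596.

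The upstream sequences below are shown for GALNT2, the leading starter of H596. They are also shown for the members that differed at least 2-fold on log2(FPKM + 1) and had a RefSeq promoter entry. Each runs 5′ to 3′ from 150 to 61 bases before the RefSeq start, outside the deposited transcript that gave nearly all of the level. The entries are of GRCh38.p14, and each matched hg19 at 1 place, whose position is given. Capitals mark the GC box GGGCGG or its complement on the other strand, CCGCCC; where matches overlap, the capitals run together. The GALNT2 stretch is at chr1:230202835-230202924 (hg19, plus strand), GALNT7 at chr4:174089812-174089901 (plus), C1GALT1 at chr7:7222025-7222114 (plus) and GALNT10 at chr5:153570143-153570232 (plus).
GALNT2: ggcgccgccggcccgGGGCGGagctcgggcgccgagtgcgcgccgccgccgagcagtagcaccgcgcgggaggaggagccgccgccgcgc
GALNT7: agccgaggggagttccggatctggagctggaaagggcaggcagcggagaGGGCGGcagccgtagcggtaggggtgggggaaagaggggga
C1GALT1: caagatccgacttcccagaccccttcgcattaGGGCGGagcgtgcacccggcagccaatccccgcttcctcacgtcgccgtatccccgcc
GALNT10: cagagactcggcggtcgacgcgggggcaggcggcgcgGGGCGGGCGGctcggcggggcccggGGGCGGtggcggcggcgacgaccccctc

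The GALNT10 stretch held 3 GC boxes and the others 1 each, and 23.8% of the 35116 RefSeq promoters held at least 1 in the same window. The GALNT10 and GALNT2 stretches were the richest in bases G and C, with 86.7% each, against 68.9% in GALNT7 and 66.7% in C1GALT1; the median of all promoters was 58.9%. Among the stretches shown, genes that were higher in H596 and the one that was lower thus both held the motif. Of all 8 member promoters, 7 held a GC box. The exception was an entry of GALNT14, with 48.9% G and C, while another GALNT14 entry held the motif. By the ratio of FPKM, GALNT14 was 2.94 times higher in H2087. Promoters were listed for 7 of the 10 members; GALNT5, GALNT6 and GALNT18 had no entry.

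GALNT5 had the largest ratio towards H596 among the members. GALNT5 (gene 11227), on the plus strand of chromosome 2 from 158114110 to 158175001, had 1.72 FPKM (95% interval, 1.61 to 1.84) in H2087 against 10.9 (95% interval, 10.6 to 11.1) in H596. This is 6.32 times higher in H596 (95% counting interval, 5.88 to 6.79). It was thus the lowest GALNT member in H2087, and stood in H596 beside GALNT12, with overlapping intervals.

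GALNT18 and GALNT14 were lower in H596, and GALNT12 was close to equal. GALNT12 (gene 79695), known from the digestive tract, lies on the plus strand of chromosome 9 from 101569981 to 101612363. It had 12.6 FPKM (95% interval, 12.0 to 13.2) in H2087 against 11.1 (95% interval, 10.6 to 11.6) in H596, and its difference of log2(FPKM + 1), -0.17, became 0.00 with TPM. No direction is therefore given for it. If each fragment had been counted as 2 reads, its intervals in the libraries would overlap.

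GALNT18 (gene 374378), a divergent member of the family, lies on the minus strand of chromosome 11 from 11292421 to 11643561. It had 17.9 FPKM (95% interval, 17.1 to 18.6) in H2087 against 12.6 (95% interval, 12.1 to 13.2) in H596. GALNT14 (gene 79623), which modifies death receptors of the TRAIL pathway, lies on the minus strand of chromosome 2 from 31133331 to 31361592. It had 2.85 FPKM (95% interval, 2.57 to 3.15) in H2087 against 0.968 (95% interval, 0.825 to 1.13) in H596. GALNT14 and GALNT6 were the only members below an FPKM of 1 in H596, and both passed the filter on mean FPKM through H2087. Of the 6 listed GALNT14 transcripts, NM_024572 gave 99.3% of the level in H2087 and all of it in H596.

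The next enzyme of the pathway was also present in both lines. C1GALT1 (gene 56913), on the plus strand of chromosome 7 from 7222246 to 7288280, had 6.44 FPKM (95% interval, 6.16 to 6.74) in H2087 against 16.7 (95% interval, 16.2 to 17.1) in H596. This is 2.59 times higher in H596. C1GALT1C1, the chaperone without which C1GALT1 is inactive, had 10.0 FPKM in H2087 against 14.5 in H596. C1GALT1C1L, a near copy of the chaperone gene, had 2.27 FPKM in H2087 and 1.07 in H596, and reads of such copies are uncertain. The C1GALT1C1 transcript was 1.56 times the enzyme transcript in H2087 and 0.870 times in H596.

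The FPKM of all 10 members averaged at least 1. On the log2(FPKM + 1) scale, 3 of them (GALNT5, GALNT7 and C1GALT1) were at least 2-fold higher in H596 and 2 (GALNT6 and GALNT10) at least 2-fold lower. Of all 13048 genes with such an average, 18.2% were higher and 14.2% lower by this measure, 32.4% in all; since the members were chosen with this contrast known, nothing is read from the counts. The median difference of the members was 0.02, and that of all genes was 0.12. Relative to the latter, 5 members lay above and 5 below. With TPM, GALNT2 passed 2-fold too, and GALNT14 passed 2-fold lower under TPM, TMM scaling, DESeq2 size factors, centring, a pseudocount of 0.1 or the plain ratio. In both libraries, 7 of the 10 members reached 10 FPKM, but they were different ones: GALNT6 and GALNT10 fell out in H596, and GALNT5 and C1GALT1 came in.

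**Figure D1:**
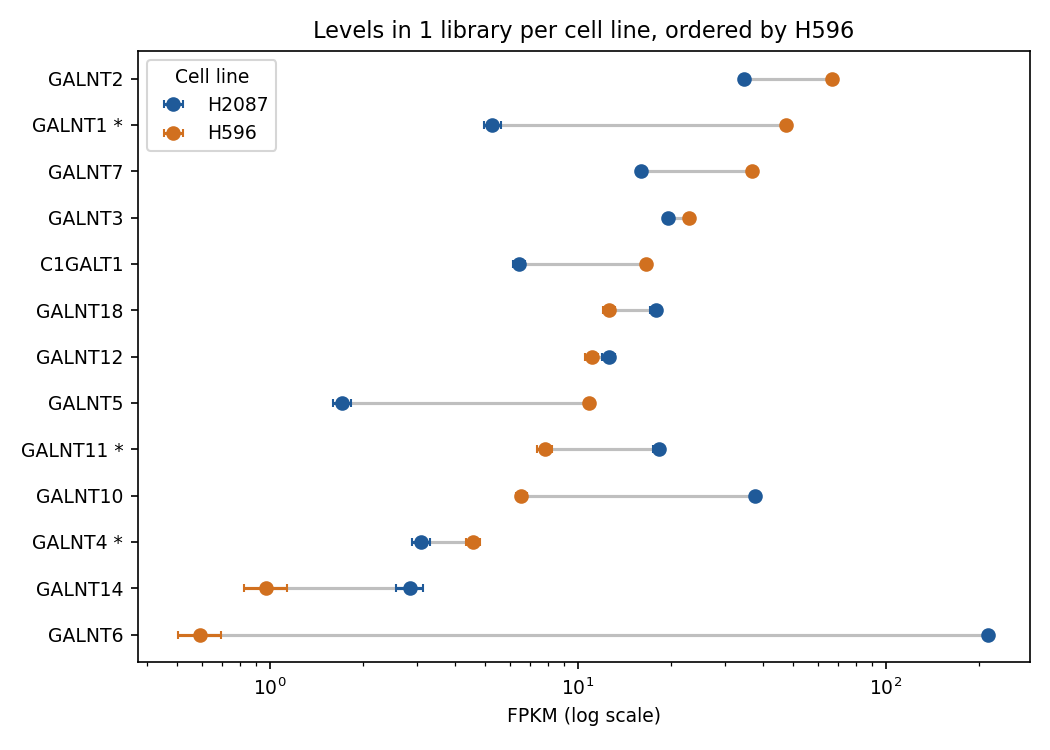
FPKM (log axis) of the members and of the other GALNT genes that reached 1 FPKM in either library, ordered by the H596 level; points are single libraries of H2087 (blue) and H596 (orange), bars are 95% counting intervals, and asterisks mark genes that are no member. GALNT6 spans the widest range, from 0.591 to 214, and GALNT3 and GALNT12 lie nearest to equal levels.

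To see which starters make up the pool, the family was taken whole, with 20 GALNT genes listed. Of these, 12 reached 1 FPKM in H2087 and 10 did so in H596, and 4 had 0 counts in H2087 and 7 in H596. GALNT1, GALNT4 and GALNT11 were the only GALNT genes outside the members to reach that level. GALNT1, a widely expressed starter like GALNT2, had 5.27 FPKM (95% interval, 4.95 to 5.61) in H2087 against 47.2 (95% interval, 46.3 to 48.1) in H596, 8.96 times higher. It thus had a larger ratio towards H596 than any member. GALNT11, which acts on Notch receptors, had 18.3 FPKM in H2087 against 7.80 in H596. GALNT4 had one of 3.09 in H2087 and 4.55 in H596; it shares sequence with the readthrough POC1B-GALNT4, so its reads are uncertain.

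In H2087 the order of levels was GALNT6, GALNT10, GALNT2, GALNT3, GALNT11, GALNT18, GALNT7, GALNT12, GALNT1, GALNT4, GALNT14 and GALNT5. Counting intervals of neighbours overlapped between GALNT3 and GALNT11, between GALNT11 and GALNT18, and between GALNT4 and GALNT14. In H596 the order was GALNT2, GALNT1, GALNT7, GALNT3, GALNT18, GALNT12, GALNT5, GALNT11, GALNT10, GALNT4, GALNT14 and GALNT6. There, intervals overlapped only between GALNT12 and GALNT5.

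The summed FPKM of the family was 384 in H2087 and 228 in H596. GALNT6 held 55.8% of that sum in H2087 (approximate 95% counting interval, 55.5 to 56.2) and 0.259% in H596 (0.217 to 0.300). Without GALNT6 the remaining sum was higher in H596, 228 against 169.5 in H2087, a ratio of 1.34. Much of that excess was GALNT1: without GALNT6 and GALNT1 the sums were 181 in H596 and 164 in H2087, a ratio of 1.10.

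The leading enzyme of H596, GALNT2, held 29.1% of the family sum (95% counting interval, 28.8 to 29.5), GALNT1 20.7% and GALNT7 16.1%. In H2087 they held 9.02%, 1.37% and 4.17%. GALNT3 held 10.0% in H596 and 5.12% in H2087, although its own level differed little, because the sum differed. The effective number of genes, the inverse of the summed squared shares, was 2.95 in H2087 and 5.76 in H596. That order rests on GALNT6, whose level chose the genes: without it the number was 7.0 in H2087 and 5.73 in H596. The family held 80107 of the estimated counts in H2087 (95% Wilson interval of the share, 0.169% to 0.172%) and 55431 in H596 (0.0992% to 0.101%). These are transcript levels, and enzyme activity was not measured.

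**Figure D2:**
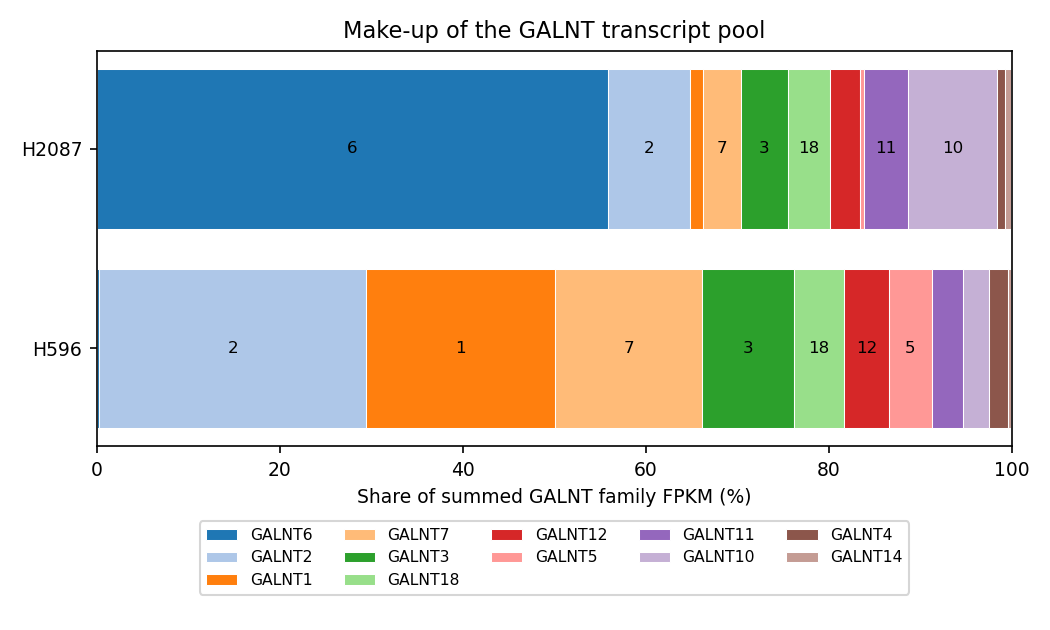
Share of the summed GALNT family FPKM (percent, horizontal axis) held by each GALNT gene that reached 1 FPKM in either library, in 1 library of H2087 and 1 of H596; the numbers in the bars are the gene numbers. GALNT6 fills 55.8% of the H2087 bar and 0.259% of the H596 bar, where GALNT2, GALNT1 and GALNT7 are the widest parts.

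Other steps of the pathway were described by gene lists. Outside the members, 38 of 48 listed genes passed the same filter; on the log2(FPKM + 1) scale 13 were at least 2-fold higher in H596, 5 at least 2-fold lower and 20 within 2-fold, beside 18.2% higher and 14.2% lower among all genes. Their median difference was 0.55, against 0.12 over all genes. By the plain ratio of FPKM, counted after the data were seen, 14 were at least 2-fold higher and 6 lower, beside 22.0% and 16.5% of all genes. Genes past or within 2-fold below are so on the log2(FPKM + 1) scale unless the ratio is named. Of the genes past 2-fold, 4 (ST6GALNAC2, ST6GALNAC5, FUT2 and MUC16) were below 1 FPKM in 1 library. They passed the filter through the other library alone, which favours a large difference but does not force it. The number higher was between 12 and 16 under other scalings or with a pseudocount of 0.1, and the number lower was 5 or 6.

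Among core enzymes, GCNT1 and GCNT3, which branch the chain to make core 2, were higher in H596. GCNT3 had 2.13 FPKM in H2087 against 14.1 in H596, and GCNT1 had 1.84 and 7.24. B3GNT6, the core 3 synthase, had 1.38 FPKM in H2087 and 0 counts in H596, an average below 1. With C1GALT1, 3 of the 5 core genes that passed the filter were thus at least 2-fold higher in H596 and 0 at least 2-fold lower; by the plain ratio, C1GALT1C1L was 2.13-fold lower.

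Of the 9 sialyltransferases that passed the filter, 3 were at least 2-fold higher and 2 at least 2-fold lower in H596. ST3GAL1, which caps the galactose of core 1 with sialic acid, had 2.58 FPKM in H2087 against 38.1 in H596. ST6GALNAC2, which sialylates the first sugar, had one of 0.831 in H2087 and 41.8 in H596. ST6GALNAC6 had 5.87 in H2087 and 15.4 in H596. The 2 lower genes were ST6GALNAC4, with 12.1 in H2087 and 5.22 in H596, and ST6GALNAC5, with 5.17 in H2087 and 3 counts in H596. ST6GALNAC1, which makes the sialyl-Tn antigen from the product of the starters, was within 2-fold, with 23.4 in H2087 and 38.0 in H596. ST3GAL4 was within 2-fold as well, with 23.1 and 35.2.

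Genes of chain extension differed in both directions as well. B4GALT4 and B4GALT5, galactosyltransferases, were both past 2-fold: the former had 8.18 FPKM in H2087 against 45.9 in H596, and the latter 20.0 against 59.1. FUT3, the Lewis fucosyltransferase, had 14.4 in H2087 and 35.3 in H596, whereas FUT2, the secretor enzyme, had 2.89 in H2087 and 0.0626 in H596. These 4 were the genes past 2-fold among the 7 that passed the filter. FUT3 has near copies in its family, so its reads are uncertain. B4GALT1 was within 2-fold, with 36.8 in H2087 and 43.5 in H596, as were B3GNT3, with 16.7 and 14.7, and B3GNT2, with 5.71 and 10.7.

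The sugar donor genes had both directions. GFPT1, the entry enzyme of hexosamine synthesis, had 46.5 FPKM in H2087 against 16.0 in H596, and UAP1, which makes the activated amino sugar, had 39.9 and 18.8. On the sialic acid side, NANS, a synthase, had 37.4 in H2087 and 122 in H596, and SLC35A1, the CMP-sialic acid transporter, had 3.93 and 25.4. The donor genes UGP2, CMAS and GALK2 (a kinase of the free sugar) were within 2-fold. UGP2 had 57.2 FPKM in H2087 against 75.4 in H596, CMAS 23.7 against 32.9 and GALK2 13.9 against 8.44. SLC35A2, the UDP-galactose transporter, had 12.8 against 25.7, a ratio of 2.01 (95% counting interval, 1.89 to 2.15) that was within 2-fold only on the log2(FPKM + 1) scale. Of the 10 donor genes, 2 were thus at least 2-fold lower, 2 at least 2-fold higher and 6 within 2-fold.

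Among acceptors, the mucin MUC1 had 86.0 FPKM in H2087 against 102 in H596, and MUC4 one of 19.9 and 18.7. MUC20 had 27.8 in H2087 and 171 in H596, and MUC16, the CA125 antigen, had 0.136 and 11.2. SDC1, a proteoglycan, had 89.3 in H2087 and 190.6 in H596. Reads of MUC20 are uncertain because it has a near copy. The other surface proteins were within 2-fold, CD44 with 43.4 FPKM in H2087 against 29.0 in H596, PODXL with 8.36 against 13.5 and GLG1 with 19.0 against 23.4. With MUC20 and MUC16, SDC1 made 3 of 8 acceptor genes at least 2-fold higher in H596, and 0 were at least 2-fold lower.

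**Figure D3:**
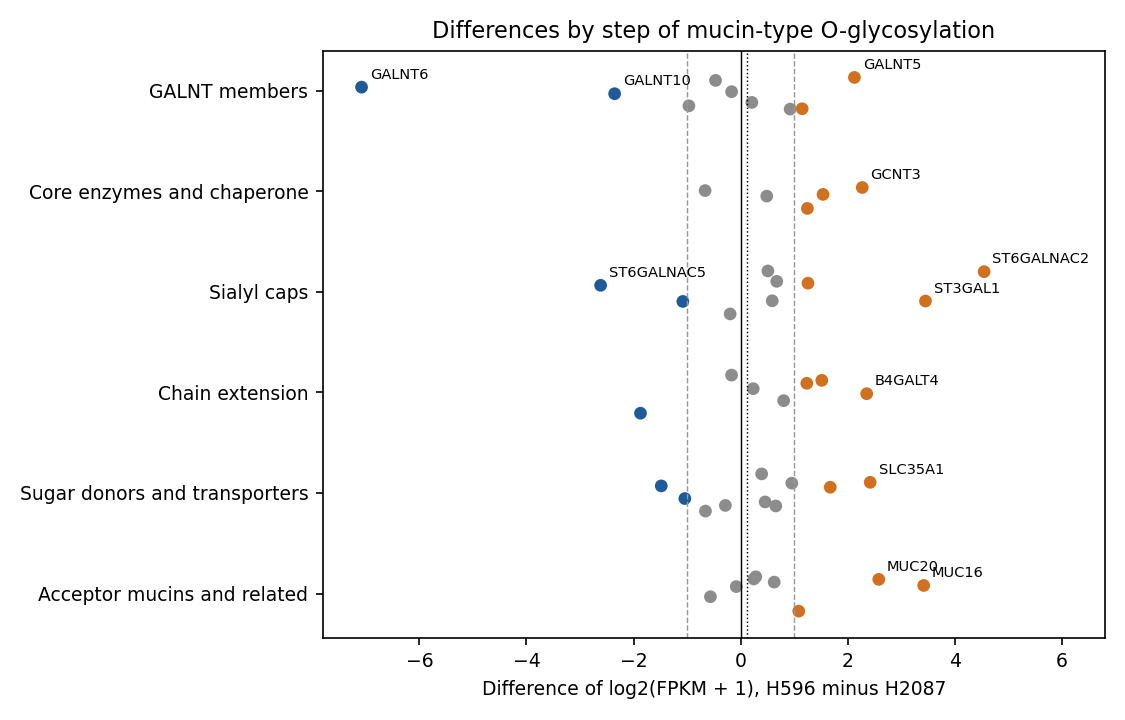
Difference of log2(FPKM + 1), H596 minus H2087, for the 9 GALNT members and for each pathway list, for genes whose FPKM averaged at least 1 (C1GALT1 is among the core enzymes); points are genes, dashed lines mark 2-fold and the dotted line the median of all genes, 0.12. Orange points are at least 2-fold higher in H596, blue points at least 2-fold lower and grey points within 2-fold, and height within a row has no meaning.

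The genes around GALNT6 that passed the filter were lower in H596 as well. Of the 10 listed genes nearest on each side, 10 of 20 passed the same filter. All 10 had a difference below 0, with a median of -1.59 against 0.12 over all genes. The share of all genes below 0 was not counted. Among the 10, 6 were at least 2-fold lower and 0 at least 2-fold higher, against 14.2% lower and 18.2% higher among all genes. The 6 are LETMD1, POU6F1, DAZAP2, SMAGP, SLC4A8 and NR4A1, of which POU6F1 and SLC4A8 passed the filter through H2087 alone. SMAGP had 175 FPKM in H2087 against 15.8 in H596, and DAZAP2 one of 373 and 71.7. SLC4A8, a bicarbonate transporter, points away from GALNT6 on the plus strand, and its first base, 51785101, lies within GALNT6, so that they share 100 bases. It had 4303 counts and an FPKM of 9.21 in H2087, and 0 counts in H596. Against the 3 counts that a count of 0 allows in 1 library, its level was at least 1692-fold higher in H2087, a larger ratio than the 363 of GALNT6. The pseudocount of the log2(FPKM + 1) scale limits the difference of a low gene. On that scale SLC4A8 differed by -3.35, SMAGP by -3.39 and GALNT6 by -7.08. GALNT6 and SLC4A8 start side by side. By the plain ratio of FPKM, they had the lowest H596 levels relative to H2087 among the genes of this stretch that passed the filter. The closest genes on the other side were BIN2, with 0 counts in both libraries, and CELA1, with 6 counts in H2087 and 0 in H596. Whether the counting used strand is not stated, so reads in the shared bases are uncertain.

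**Figure D4:**
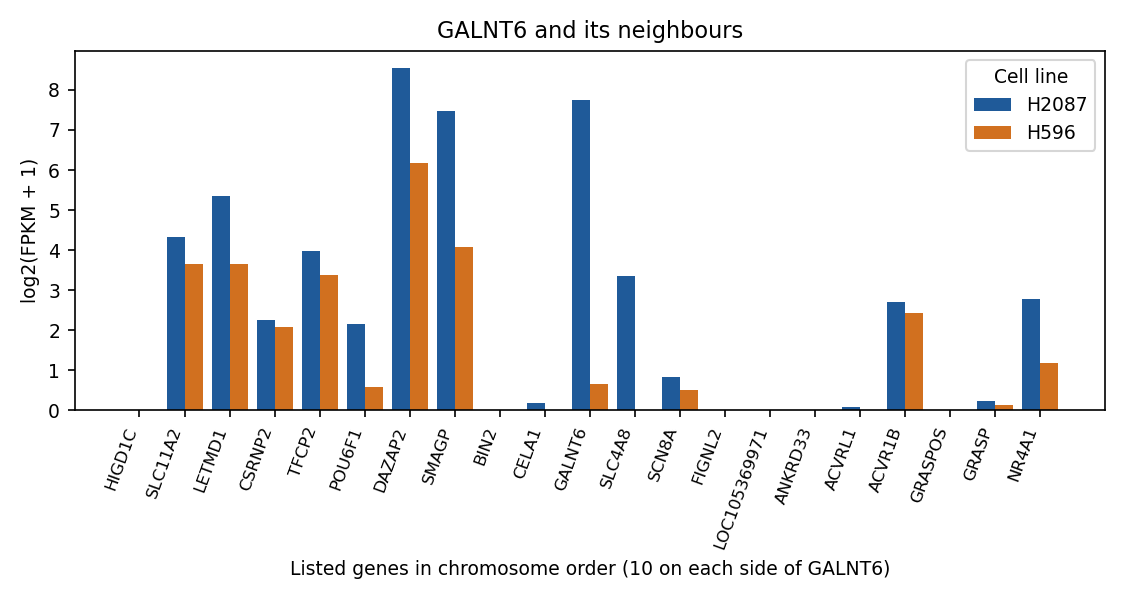
Level as log2(FPKM + 1) of GALNT6 and of the 10 listed genes on each side in chromosome order, in 1 library of H2087 (blue) and 1 of H596 (orange). Every gene whose FPKM averaged at least 1 has a lower orange bar than blue bar, and SLC4A8, beside GALNT6, has 0 counts in H596.

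Over the pair of libraries, the genes whose levels were most like those of GALNT6 were CHI3L1, NKX2-1, MT1E, FKBP10 and GSTP1. Likeness was the distance on the log2(FPKM + 1) scale, from 0.90 for CHI3L1 to 1.22 for GSTP1. FKBP10 had 100.0 FPKM in H2087 against 0.793 in H596, and NKX2-1 one of 110 and 0.508. With 2 libraries, any gene that is high in H2087 and near 0 in H596 is near GALNT6 by this measure.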

How the data were processed

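RNA-seq data of 1 H2087 and 1 H596 library were used. Per the labels and the study's methods, the authors made strand-specific libraries of mRNA for an Illumina HiSeq4000, mapped reads onto hg19 by HISAT2 2.0.5 and estimated abundances of RefSeq transcripts with StringTie 1.3.3b; bcl2fastq 1.8.4 and Trimmomatic are also in the submitters' processing notes. Estimated counts and FPKM were deposited for genes and for transcripts. The deposited estimated counts are all whole, and how they were made is not given in the sources used here. The deposited FPKM values, relative to length and library size, were not normalized again.

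The members and all lists were chosen with earlier results of these data known. Genes whose FPKM averaged at least 1 were compared on log2(FPKM + 1), which understates the changes of low genes; 1 library per cell line allows no test. Ratios of FPKM carry exact counting intervals, and shares of the family sum approximate ones. Both, like the Wilson intervals, cover counting error only and set the precision that depth gives. Pathway genes were named where they had an FPKM of at least 10 in either library; B3GNT6, C1GALT1C1L, FUT2, GCNT1, ST6GALNAC5 and the named neighbours were singled out after their values were seen, and so were the lists in the closing section. The other genes of these lists are in the counts only, except for 1 gene that was left out of all counts and is not reported here. Transcripts with at least 5% of a gene were named. Strands are from GENCODE release 44 mapped to GRCh37, in which all 10 members overlapped the deposited position. Scaling by edgeR 4.0.16 (TMM) and DESeq2 1.42.0, in R 4.3.3, TPM, centring, other pseudocounts and filters, a 4-fold limit, transcript values and counts not divided by length were alternatives. Calls and intervals were tried on simulated counts that held counting noise only. That check does not cover variation between cultures or libraries. Python 3.11.15, numpy 2.4.6, pandas 2.3.3, scipy 1.17.1 and matplotlib 3.10.9 were used.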

Additional observations from a re-analysis of the deposited data

How the results depend on the processing

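Under 6 alternatives (pseudocount of 0.1, TPM, TMM scaling, DESeq2 size factors, centring, highest single transcript), 59 of 60 differences of single members kept their sign; the exception was GALNT12 with TPM, at 0.00. The median difference of all genes, 0.12 as deposited, was 0.29 with TPM and 0.00 with TMM scaling. With a 4-fold limit 1 member, GALNT5, was higher in H596 and 2 were lower; the other alternatives gave 2 or 3 lower and 3 or 4 higher. With counts not divided by length, GALNT6 held 57.9% of the family in H2087 and GALNT2 30.4% in H596, and the family ratio of H596 to H2087, 0.595 as deposited, was 0.692. Within the 9 GALNT members alone, GALNT6 held 60.0% in H2087 and 0.350% in H596, GALNT2 held 39.4% in H596, and the ratio was 0.473, since GALNT1 is left out. The ratio was 0.676 with TPM and 0.543 with TMM scaling. Without GALNT6, an alternative chosen after seeing the data, it reversed to 1.34. GALNT2 led in H596 as deposited, by the highest single transcript, with counts not divided by length and within the 9 members; scaling a whole library cannot change that order. If each fragment had been counted as 2 reads, the intervals of 1 member, GALNT12, would overlap between the libraries, against 0 as deposited. No paired analysis was possible because only 1 library of each line exists here; none could be left out either. Depth limits the H596 values of GALNT6 and GALNT14, at 152 and 151 counts.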

Other observations

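Enzymes that start other kinds of protein O-glycosylation were detected in both libraries, apart from XYLT1. Of 9 such genes, 8 averaged at least 1 FPKM. On the log2(FPKM + 1) scale 1 was at least 2-fold higher in H596 and 1 lower, beside 18.2% and 14.2% of all genes; by the plain ratio of FPKM, 4 (POMT1, POMT2, POGLUT1 and XYLT2) were higher and 1 (EOGT) lower, beside 22.0% and 16.5%. POFUT1, which adds fucose to Notch repeats, had 30.2 FPKM in H2087 against 56.3 in H596, and OGT, which adds N-acetylglucosamine to nuclear and cytoplasmic proteins, had 42.1 and 53.9. POMT2, which starts O-mannose chains, had 1.97 in H2087 and 7.71 in H596. EOGT, which adds N-acetylglucosamine to extracellular domains, had 7.97 in H2087 and 2.01 in H596. XYLT1 had 0 counts in both libraries, while XYLT2, which starts proteoglycan chains as XYLT1 does, had 6.59 in H2087 and 13.3 in H596.

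Of 8 N-acetylgalactosaminyltransferases that act on lipids or on sugar chains, 6 averaged at least 1 FPKM. On the log2(FPKM + 1) scale 1 was at least 2-fold higher in H596, 2 were lower and 3 within 2-fold. Among all genes 18.2% were higher and 14.2% lower. B4GALNT1, the synthase of the gangliosides GM2 and GD2, had 4.85 FPKM in H2087 and 2 counts in H596. B4GALNT3 had 7.23 in H2087 and 2.19 in H596. B3GALNT1, the globoside synthase, had 0 counts in H2087 and an FPKM of 2.22 from 441 counts in H596. B3GALNT2, which extends O-mannose chains, had 14.8 in H2087 and 12.0 in H596. With 1 library per cell line these values have no replicate check.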
